A study of Danio rerio with 28 samples.

Results

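The U1, U3 and 5.8S RNAs, entered in the deposited table as U1, U3 and 5_8S_rRNA, were followed with nop58 in sorted zebrafish cells. The gene nop58 encodes a protein that binds one class of small nucleolar RNAs. Sorting covered stages of early germ cell development. These 4 of the 1017 rows were chosen by name, with their plate means, spread between plates and correlations over cells already known. Those quantities are therefore given as descriptions without a test. Cells were sorted one per well into Trizol, a lysis reagent, and read by CEL-seq, in which each well carries a barcode and the 3' end of an RNA is sequenced. The mutant cells came from embryos of mothers labelled mz tdrd6a-/-, the usual form for maternal-zygotic mutants, and lack Tdrd6a, a germ plasm protein with Tudor domains. They were sorted from 5 plates at 3.5 hours post fertilization (hpf) with 264 cells, 4 plates at 8 hpf with 112 cells and 3 plates at 24 hpf with 156 cells. The wild-type cells came from embryos of wild-type mothers and filled 5 plates at 3.5 hpf with 205 cells, 4 plates at 8 hpf with 101 cells and 5 plates at 24 hpf with 196 cells. The series' design text names a germ cell GFP reporter (kop::egfp-f-nos1-3'UTR) beside the wild-type mothers and does not say clearly whether the mutant mothers carried it too. A wild-type plate at 2 weeks post fertilization (76 cells), 48 wells of mutant plate 1 at 8 hpf described as heterozygous, and a plate labelled wild type, with heterozygous wells at 8 hpf and further wells at 24 hpf, were described and entered no comparison. The 2 kinds of wells in such plates were told apart by the order of the barcodes that the labels list. The labels do not say whether plates of a group came from separate clutches, so the spread between plates may be in part technical.

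U1 is the small nuclear RNA that pairs with the start of an intron when the spliceosome assembles. U3 is a box C/D small nucleolar RNA that is needed for the first cuts of the ribosomal RNA precursor, and the 5.8S RNA is cut from that same precursor and stays in the large ribosomal subunit. Nop58 is a core protein of box C/D particles, U3 among them, together with Nop56, the RNA methylase fibrillarin (fbl) and a small RNA-binding protein. Early fish embryos live on maternal RNA and ribosomes, and new ribosomal RNA is made and new introns are spliced once the embryo's own genome is transcribed. CEL-seq primes on poly(A) tails, which mature U1, U3 and 5.8S RNA lack, so the values of these 3 rows are what the primer picked up and not the amount of each RNA in a cell. The names also stand for many genomic copies: 182 Ensembl gene identifiers carry the symbol U1, 29 carry U3 and 6 carry 5_8S_rRNA, while nop58 has 1 RefSeq entry. Which copies gave the reads is not given in the sources used here, and levels were not compared between these rows.

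Each deposited value is a whole number plus 0.1, and the number above 0.1 is called transcripts here; a plate mean is the average number of transcripts per cell. Cells held a median of 424.0 transcripts (156 to 855) over the listed genes, and plates held 2 to 74 cells. Plates with fewer than 10 cells were wild-type plate 1 at 3.5 hpf (4 cells), mutant plate 4 at 8 hpf (2 cells) and wild-type plate 3 at 8 hpf (6 cells). Summed germ cell markers, of which 10 are listed, were above 0 in every plate. Only nanos3, tdrd7 and the oocyte-type linker histone h1m were detected in each of the 26 compared plates. The others were at 0 in some of them: gra in 1, ca15b in 2, vasa in 3 and dnd in 5. For dazl it was 6 plates, for piwil2 11 and for piwil1 15. At 8 hpf the listed germ cell markers other than h1m summed to 1.88, 3.64, 4.15 and 1.5 transcripts per cell in mutant plates 1 to 4, against 1.38, 12, 4.5 and 8.08 in wild-type plates 1 to 4. Mutant plate 1 at 8 hpf stood apart: its 48 mutant wells held 4.71 transcripts per cell of 8 muscle genes and 4.02 of 3 erythroid globin genes, and its 48 heterozygous wells held 4.75 and 4.21. The other compared 8 hpf plates held at most 0.5 and 0.0556, and the compared 24 hpf plates 0.83 to 6.05 muscle transcripts per cell. Globin transcripts at 24 hpf were 0.0167 to 0.452 per cell in mutant plates and 0 to 0.0732 in wild-type plates. The 24 hpf wells outside the comparisons held 2.15 globin transcripts per cell. The 8 hpf differences of U1, U3, 5_8S_rRNA and nop58 between the genotypes are given with this plate and without it. Where the plates of fewer than 10 cells are left out too, only mutant plates 2 (36 cells) and 3 (26 cells) remain at 8 hpf.

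U1 was abundant at 3.5 and 8 hpf and sparse at 24 hpf in both genotypes. At 3.5 hpf the 5 mutant plates averaged 10.4, 2.40, 7.57, 12.9 and 1.62 transcripts per cell, against 5.25, 10.8, 1.61, 4.30 and 1.71 in the 5 wild-type plates. Both sets ran from under 2 to over 10 and overlapped throughout. At 8 hpf the 4 mutant plates averaged 4.35, 1.31, 0.923 and 3 transcripts per cell, against 3.29, 8.96, 5 and 14.1 in the 4 wild-type plates. Only mutant plate 1, the plate with muscle and globin transcripts, reached into the wild-type range. At 24 hpf the 3 mutant plates averaged 0.0952, 0.574 and 0.283, against 0.756, 0.1, 0.684, 0.457 and 0.535 in the 5 wild-type plates, so that every 24 hpf plate lay below every 3.5 and 8 hpf plate.

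The fitted difference in U1 between mutant and wild-type plates, on the scale of log2(transcripts + 0.2), was 0.49 (SE 0.57) at 3.5 hpf, -1.65 (SE 0.64) at 8 hpf and -0.45 (SE 0.66) at 24 hpf. Without mutant plate 1 at 8 hpf and the plates of fewer than 10 cells, the 8 hpf difference was -2.57. Its mutant side rests on plates 2 and 3 alone. Over all compared 8 hpf plates the summed germ plasm markers varied too. They ran from 1.5 to 4.15 transcripts per cell in mutant plates and from 1.38 to 12 in wild-type plates. In wild-type plates the 2 with most U1 were the 2 with most of these markers, and in mutant plates they were the 2 with least, and the markers' part in the difference was not tested. Between 24 and 8 hpf the difference was -2.22 (SE 0.69) in mutant plates and -3.41 (SE 0.61) in wild-type plates, and plates of these stages did not overlap in either genotype. Without mutant plate 1 and the small plates the mutant difference was -1.44. Over all tested genes, 18.6% of 910 (169 genes, or 55 without mutant plate 1 at 24 hpf) passed the test between 24 and 8 hpf in mutant plates, and 31% passed in wild-type plates. Since U1 was chosen on these contrasts, nothing is read from its place among them. Between 8 and 3.5 hpf, where plates overlapped, the difference was -1.31 (SE 0.61) in mutant plates, or -2.09 with mutant plate 1 and all small plates left out, and 0.83 (SE 0.61) in wild-type plates, or 0.52 with each cell rescaled to the same total. As a share of all listed transcripts, U1 made up 2.04% ± 1.40 in mutant plates and 1.26% ± 0.990 in wild-type plates at 3.5 hpf (SD, n = 5 each), and 0.478% ± 0.270 in mutant and 1.78% ± 1.13 in wild-type plates at 8 hpf (SD, n = 4 each). At 24 hpf its share was 0.0584% ± 0.0457 in mutant plates (SD, n = 3) and 0.0978% ± 0.0494 in wild-type plates (SD, n = 5).

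**Figure D1:**
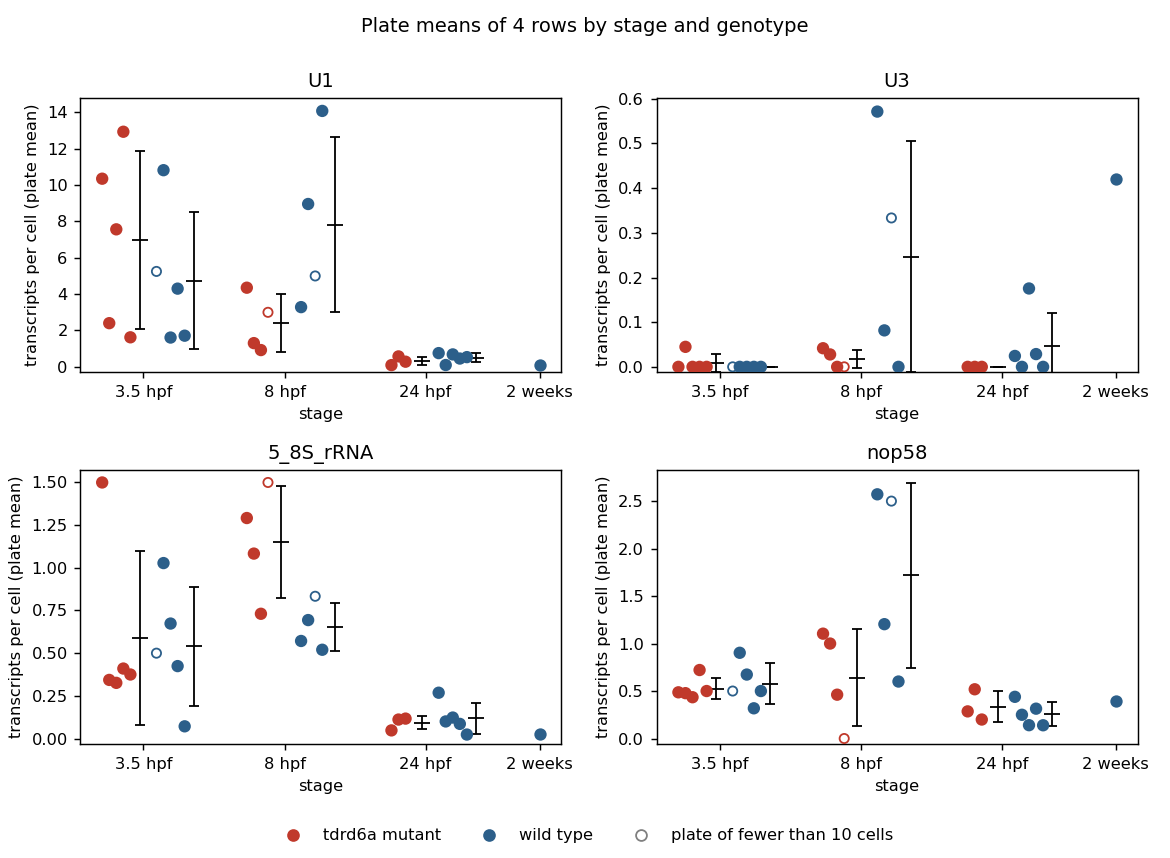
Plate means of U1, U3, 5_8S_rRNA and nop58 in transcripts per cell by stage, with tdrd6a mutant plates left of wild-type plates, 1 point per plate, open points for plates of fewer than 10 cells, and a bar for the mean ± SD of a group. U1 and 5_8S_rRNA are low in all 24 hpf plates, U3 is at 0 in most plates and highest in wild-type 8 hpf plate 1 (0.571), and nop58 is highest in the same plate (2.57).

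U1 was also uneven from cell to cell. At 3.5 hpf 70.1% of 264 mutant cells and 67.8% of 205 wild-type cells held at least 1 U1 transcript, and at 8 hpf 47.3% of 112 mutant cells and 65.3% of 101 wild-type cells did. At 24 hpf these shares were 14.7% of 156 mutant cells and 19.9% of 196 wild-type cells. Cells were then thinned to 250 transcripts each, and shallower cells were left out, so that 254 of 264 mutant cells at 3.5 hpf remained, 108 of 112 mutant and 97 of 101 wild-type cells at 8 hpf, and all cells of the other groups. The thinned shares at 3.5 hpf were 68.4% of mutant and 62.3% of wild-type cells. They were 41.5% of mutant and 58.4% of wild-type cells at 8 hpf, and 9.41% of mutant and 14.3% of wild-type cells at 24 hpf. The thinned shares put the genotypes in the same order at each stage. The highest value was a cell of wild-type plate 4 at 8 hpf with 161 U1 transcripts of 551 in all, or 29.2% of its listed transcripts, and 7 cells of the series held at least 50. Without that cell the mean of its plate was 7.96, still above every mutant plate at 8 hpf. The variance of U1 over the cells of a plate, divided by its mean, would be near 1 for independent counts and was 75.4 in that plate, 39.3 in wild-type plate 2 at 8 hpf and 21.6 in mutant plate 1 at 3.5 hpf. The lowest ratios were 0.947 in wild-type plate 2 at 24 hpf and 0.933 in the 2 week plate, where U1 was rare. In wild-type cells at 8 hpf the 11 cells with most U1 held 64.7% of all U1 transcripts of the group.

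**Figure D2:**
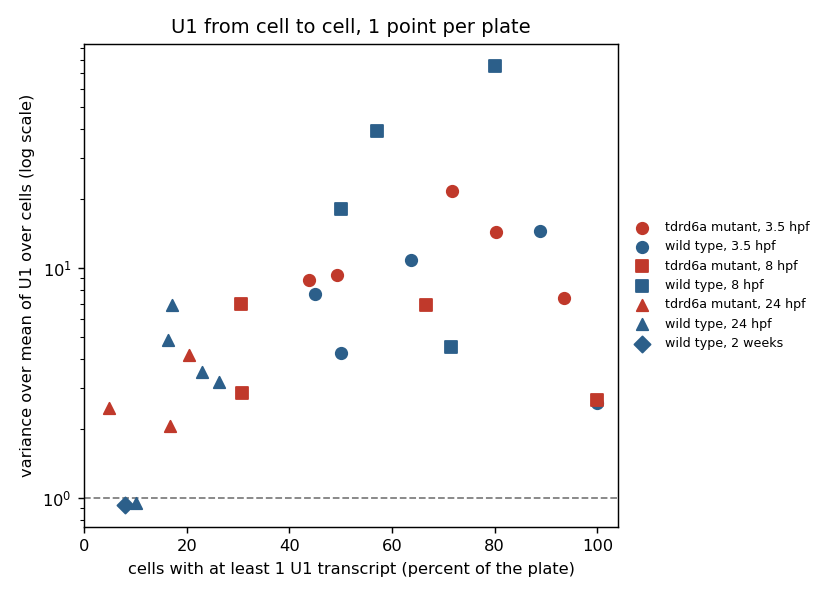
Percent of the cells of a plate with at least 1 U1 transcript (horizontal axis) against the variance over mean of U1 over those cells (vertical axis, log scale), 1 point per plate, with shapes for stage and colours for genotype and a dashed line at a ratio of 1. Wild-type 8 hpf plates 4 and 2 stand highest at 75.4 and 39.3, and the 2 week plate and a wild-type 24 hpf plate lie just below the line.

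U3 was close to absent at 3.5 hpf, and its few transcripts lay mainly in wild-type cells of later stages. In mutant plates at 3.5 hpf it was seen in plate 2 alone (0.0448, from 3 transcripts), and all 205 wild-type cells of that stage held none, which allows up to 0.0146 transcripts per cell. At 8 hpf the mutant plates averaged 0.0417, 0.0278, 0 and 0 transcripts per cell, from 3 transcripts in 112 cells. The wild-type plates averaged 0.571, 0.0816, 0.333 and 0, from 18 transcripts in 101 cells, so the highest mutant plate lay below the highest 3 wild-type plates while both genotypes had plates at 0. The fitted log2 difference was -0.85 (SE 0.25). It was -0.66 without the plates of fewer than 10 cells, and -0.72 with mutant plate 1 left out as well. Without wild-type plate 1, which gave 12 of the 18 transcripts, it was -0.52. The SE rests on a spread shared over all 6 groups, in which most U3 plates were at 0. The SD of U3 plate means was 0.259 in wild-type plates at 8 hpf and at most 0.0738 in the other groups. The SE thus understates the spread of these wild-type plates. Taken over the group, the wild-type level at 8 hpf was 12.2 times the limit for wild-type cells at 3.5 hpf. Without plate 1 it was 5.13 times that limit. These ratios leave out the counting error of the 8 hpf level and the spread between plates, so they are not lower bounds.

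At 24 hpf no U3 transcript was found in 156 mutant cells, which allows up to 0.0192 per cell. The 5 wild-type plates averaged 0.0244, 0, 0.175, 0.0286 and 0, from 12 transcripts in 196 cells. Of these, 10 lay in plate 3, and without it the remaining 2 transcripts in 139 cells put the wild-type level (0.0144) under the mutant limit, so a difference at this stage was not detectable apart from that plate. The 2 week plate, with 32 U3 transcripts in 76 cells, had 0.421 per cell (exact 95% Poisson interval 0.288 to 0.594), more than any 24 hpf plate. Intervals and limits of this kind cover counting error only. The divided 8 hpf plate gave a comparison inside 1 library: its 48 mutant wells held 2 U3 transcripts, or 0.0417 per cell (interval 0.00505 to 0.151), and its 48 heterozygous wells held 25, or 0.521 (interval 0.337 to 0.769). The heterozygous transcripts came from 14 cells with at most 3 in a cell. These are the wells of a single plate, which carry the same muscle and globin transcripts, and the contrast has no replicate. In the same plate U1 stood at 4.35 in mutant and 4 in heterozygous wells, 5_8S_rRNA at 1.29 in mutant and 0.75 in heterozygous wells, and nop58 at 1.1 in mutant and 1.19 in heterozygous wells.

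The 5.8S row was highest at 8 hpf in the mutant and low at 24 hpf in both genotypes. At 3.5 hpf mutant plates averaged 1.5, 0.343, 0.326, 0.410 and 0.375 transcripts per cell, against 0.5, 1.03, 0.673, 0.424 and 0.0714 in wild-type plates. Mutant plate 1 was far above the other mutant plates, and the ranges overlapped. At 8 hpf mutant plates averaged 1.29, 1.08, 0.731 and 1.5, against 0.571, 0.694, 0.833 and 0.52 in wild-type plates. Here 3 mutant plates lay above all wild-type plates and plate 3 lay among them. Of the mutant plates above, plate 4 held 2 cells and plate 1 was the plate with muscle and globin transcripts. The highest wild-type plate held 6 cells. At 24 hpf mutant plates averaged 0.0476, 0.111 and 0.117, against 0.268, 0.1, 0.123, 0.0857 and 0.0233 in wild-type plates, a range that covered the mutant values.

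The fitted log2 difference between mutant and wild-type plates in 5_8S_rRNA was 0.084 (SE 0.33) at 3.5 hpf, 0.64 (SE 0.37) at 8 hpf and -0.099 (SE 0.38) at 24 hpf. The 8 hpf value was 0.46 with mutant plate 1 and every plate under 10 cells left out. Between 8 and 3.5 hpf the difference was 0.91 (SE 0.35) in mutant plates and 0.35 (SE 0.35) in wild-type plates, with overlapping ranges. The mutant value was 0.64 without plate 1 and the small plates. With each cell rescaled to the same total these differences were 0.42 in mutant and 0.16 in wild-type plates, and with plates weighted by cells the wild-type one was 0.029. As a share of all listed transcripts 5_8S_rRNA made up 0.239% ± 0.0492 at 8 hpf (SD, n = 4) and 0.178% ± 0.163 at 3.5 hpf (SD, n = 5) in mutant plates, and 0.146% ± 0.0333 at 8 hpf (SD, n = 4) and 0.145% ± 0.0941 at 3.5 hpf (SD, n = 5) in wild-type plates, where the shares of the stages were nearly equal. Between 24 and 8 hpf the difference was -2.19 (SE 0.40) in mutant plates, or -1.91 without plate 1 and the small plates, and -1.45 (SE 0.35) in wild-type plates, and plates of these stages did not overlap. At 8 hpf the mean of U1 was lower in mutant plates (2.40 ± 1.59) than in wild-type plates (7.83 ± 4.80, SD, n = 4 each). The mean of 5_8S_rRNA was higher in mutant plates (1.15 ± 0.328) than in wild-type plates (0.655 ± 0.140, SD, n = 4 each). Plates of the genotypes overlapped for both rows, and a genotype difference in either row was not tested.

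The nop58 mRNA was highest in wild-type plates at 8 hpf. At 3.5 hpf mutant plates averaged 0.486, 0.478, 0.435, 0.721 and 0.5 transcripts per cell, against 0.5, 0.903, 0.673, 0.318 and 0.5 in wild-type plates. The groups lay on top of each other. At 8 hpf mutant plates averaged 1.1, 1, 0.462 and 0, against 2.57, 1.20, 2.50 and 0.600 in wild-type plates. The mutant plate at 0 held 2 cells and the wild-type plate at 2.50 held 6, and the larger plates overlapped. At 24 hpf mutant plates averaged 0.286, 0.519 and 0.2, against 0.439, 0.25, 0.140, 0.314 and 0.140 in wild-type plates.

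For nop58 the fitted log2 difference between mutant and wild-type plates was -0.072 (SE 0.38) at 3.5 hpf, -1.34 (SE 0.43) at 8 hpf and 0.23 (SE 0.44) at 24 hpf. The 8 hpf value was -0.75 with mutant plate 4 left out and -0.53 with every plate under 10 cells left out, so its size rests on those plates. With mutant plate 1 left out as well it was -0.71. Between 8 and 3.5 hpf the mutant plates differed by -0.089 (SE 0.41), or by 0.50 without the 2-cell plate, and the wild-type plates by 1.17 (SE 0.41). Without mutant plate 1 and the small plates the mutant difference was 0.31. With each cell rescaled to the same total it was -0.40 in mutant plates and 0.99 in wild-type plates. Between 24 and 8 hpf the mutant plates differed by -0.38 (SE 0.46), with overlap, or by -0.96 without the 2-cell plate. This mutant difference was -0.78 with mutant plate 1 left out as well. The wild-type plates differed by -1.94 (SE 0.41), without overlap.

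Its partner in the box C/D particle, nop56, was no member of the set. It was higher at 8 than at 3.5 hpf in both genotypes. Between these stages nop58 differed by 1.17 in wild-type plates. In mutant plates nop58 differed by -0.089, or by 0.50 without the 2-cell plate and 0.31 without mutant plate 1 as well. With each cell rescaled to the same total the mutant difference of nop58 was -0.40. The 2 genes were not tested against each other. In mutant plates nop56 averaged 1.96 ± 0.709 transcripts per cell at 8 hpf (SD, n = 4) and 0.515 ± 0.0964 at 3.5 hpf (SD, n = 5). In wild-type plates it averaged 3.07 ± 1.36 at 8 hpf (SD, n = 4) and 0.681 ± 0.214 at 3.5 hpf (SD, n = 5). The rise of nop56 was 1.55 on the log2 scale in mutant plates (SE 0.37, limma, Benjamini-Hochberg adjusted p = 0.00136) and 1.83 in wild-type plates (SE 0.37, limma adjusted p = 0.000218). Every 8 hpf plate lay above every 3.5 hpf plate of its genotype. Between 24 and 8 hpf nop56 differed by -1.16 in the mutant (limma adjusted p = 0.0515), which missed the threshold of 0.05, and fell by 2.00 in wild-type plates (limma adjusted p = 0.000117). The difference of nop56 between mutant and wild-type plates at 8 hpf was -0.55 (SE 0.39, limma adjusted p = 0.825).

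Ordered by group mean, U1 ran from wild-type 8 hpf (7.83 ± 4.80) through mutant 3.5 hpf (6.98 ± 4.92), wild-type 3.5 hpf (4.74 ± 3.75) and mutant 8 hpf (2.40 ± 1.59) to wild-type 24 hpf (0.506 ± 0.256) and mutant 24 hpf (0.318 ± 0.241), in transcripts per cell with the SD over plates. Only the step from mutant 8 hpf to wild-type 24 hpf separated neighbours whose plates did not overlap. For 5_8S_rRNA the order was mutant 8 hpf, wild-type 8 hpf, mutant 3.5 hpf (0.591 ± 0.509), wild-type 3.5 hpf (0.539 ± 0.350), wild-type 24 hpf (0.120 ± 0.0907) and mutant 24 hpf (0.0918 ± 0.0384), and for nop58 it was wild-type 8 hpf (1.72 ± 0.98), mutant 8 hpf (0.641 ± 0.512), wild-type 3.5 hpf (0.579 ± 0.220), mutant 3.5 hpf (0.524 ± 0.113), mutant 24 hpf (0.335 ± 0.165) and wild-type 24 hpf (0.257 ± 0.126). In both of these orders each neighbouring pair overlapped.

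The rows also differed in how far plates of the same group stood apart. The residual SD of the plates on the log2 scale was 0.974 for U1, above that of 99.1% of the 910 tested genes, and 0.659 for nop58, above 91.6%. It was 0.545 for 5_8S_rRNA (78%) and 0.388 for U3 (38.2%), where most plates were at 0. The median over all tested genes was 0.424. Without the plates of fewer than 10 cells U1 still stood above 99.7% of genes (1.03) and nop58 above 88.2% (0.485), while 5_8S_rRNA stood above 94.9% (0.576) and U3 above 71.4% (0.400), beside a median of 0.338.

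Likeness over the 26 plates was measured as the root mean square difference of log2 profiles after centring. The genes nearest to U1 were zgc:158463 at 1.16, 5_8S_rRNA at 1.25 and CT583728.14 at 1.26, with a median of 1.77 over the other 909 genes. Nearest to 5_8S_rRNA were zgc:158463 at 0.590, CT583728.14 at 0.632 and ctnnb1, the gene of beta-catenin, at 0.680, with a median of 1.1. The genes zgc:158463 and CT583728.14 thus stood near both RNA rows, and snrpa, the gene of a U1 particle protein, was also near 5_8S_rRNA at 0.71. Nearest to nop58 were MKI67, the Ki-67 proliferation marker, at 0.460, acin1b at 0.47 and brd3a, a bromodomain gene, at 0.469, with a median of 1.0. Nearest to U3, a row mostly at 0, were zgc:92061 at 0.371, pnisr at 0.380 and zgc:193505 at 0.384, with a median of 0.750.

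The wider nucleolar and splicing machinery was counted on lists of genes named by function. The nucleolar list held 10 tested genes beside nop58, and at 8 against 3.5 hpf in the mutant 4 rose and none fell, where 11.8% of all tested genes rose and 31.9% passed in either direction. These were nop56, bysl (small subunit assembly; log2 difference 1.0, limma adjusted p = 0.00129), npm1a (nucleophosmin; 0.98, limma adjusted p = 0.0243) and ncl (nucleolin; 0.74, limma adjusted p = 0.0336). The npm1a call was lost without mutant plate 5 at 3.5 hpf or mutant plate 3 at 8 hpf, and the ncl call without mutant plates 2, 4 or 5 at 3.5 hpf or 2 or 3 at 8 hpf. Neither call held with each cell rescaled to the same total or with limma voom on summed transcripts. In the wild type 2 rose and none fell, where 11.6% of all tested genes rose and 34.7% passed in either direction: nop56 and dkc1, the pseudouridine synthase of box H/ACA particles (1.62, limma adjusted p = 0.00179). The median log2 difference of the list was 0.34 in mutant plates, beside 0.0085 over all tested genes, and 0.35 in wild-type plates, beside -0.020. The gene of fibrillarin, the third core box C/D protein listed, did not pass in any comparison, with -0.36 in mutant plates and 0.36 in wild-type plates between these stages.

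At 24 against 8 hpf the nucleolar genes that changed fell. In the mutant 2 of 10 fell and none rose, where 2.64% of all tested genes fell: npm1a (-1.37, limma adjusted p = 0.0137) and ncl (-1.07, limma adjusted p = 0.0154). Neither call held without mutant plate 3 at 24 hpf, nor the ncl call without mutant plate 3 at 8 hpf. In wild-type plates 4 of 10 fell and none rose, where 6.92% of all tested genes fell: dkc1 (-2.12, limma adjusted p = 0.000131), nop56, npm1a (-1.68, limma adjusted p = 0.000271) and ncl (-1.48, limma adjusted p = 1e-04). The list's median was -0.42 in mutant plates and -0.65 in wild-type plates, beside 0.12 over all tested genes in each. Of the 77 ribosomal protein genes 65 rose and none fell in the mutant (median 1.37), where 15.9% of all tested genes rose. In wild-type plates 74 rose and none fell (median 1.68), where 24.1% of all tested genes rose. In the mutant 19 passed without plate 1 at 24 hpf, and 42 without plate 2 or plate 4 at 8 hpf. At 8 against 3.5 hpf 20 of the 77 rose and 1 fell in the mutant, where 11.8% of all tested genes rose and 20.1% fell. In wild-type plates 16 rose and 1 fell, where 11.6% of all tested genes rose and 23.1% fell. In the mutant these 21 calls became 11 without plate 1 and 44 without plate 4 at 8 hpf, and in the wild type the 17 calls became 9 without plate 1 and 8 without plate 3 at 8 hpf, and 11 without plate 1 at 3.5 hpf. The low 24 hpf level of 5_8S_rRNA, a description here, thus stood beside ribosomal protein mRNAs with higher plate means at 24 hpf. Muscle transcripts, which moved with stage, were 0.83 to 6.05 per cell at 24 hpf, and 0.0385 to 0.5 at 8 hpf outside mutant plate 1; their part in these counts was not tested.

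The genes of spliceosomal proteins had few calls, and their counts are not read as a trait of the list. Of 13 tested, 3 fell and none rose at 8 against 3.5 hpf in the mutant, where 20.1% of all tested genes fell. In wild-type plates 1 fell and none rose, where 23.1% of all tested genes fell. The Sm ring gene snrpd3 fell in both, to 0.247 ± 0.182 in mutant plates at 8 hpf (SD, n = 4) against 0.906 ± 0.293 at 3.5 hpf (SD, n = 5), and to 0.149 ± 0.0794 in wild-type plates at 8 hpf (SD, n = 4) against 1.09 ± 0.316 at 3.5 hpf (SD, n = 5). Its log2 difference was -1.35 in mutant plates (limma adjusted p = 0.000789) and -1.88 in wild-type plates (limma adjusted p = 1.18e-05), with no overlap of plates. The other mutant calls were lsm4, a ring protein of U6 (-0.83, limma adjusted p = 0.0220), and snrpc, a U1 particle protein (-0.77, limma adjusted p = 0.0271), and neither held without mutant plate 4 of 2 cells at 8 hpf. The lsm4 call was also lost without mutant plate 2 at 3.5 hpf or 3 at 8 hpf, and the snrpc call without mutant plate 4 or 5 at 3.5 hpf.

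At 24 against 8 hpf in the mutant snrpa, the gene of a U1 particle protein, fell (-1.05, limma adjusted p = 0.0255) and no other of the 13 spliceosomal genes passed, where 2.64% of all tested genes fell. It did not pass without any 1 of the 3 mutant plates at 24 hpf or without mutant plate 3 at 8 hpf. The wild type had 3 of the 13 spliceosomal genes that rose and 3 that fell, where 24.1% of all tested genes rose and 6.92% fell. Those that fell were the genes of all 3 U1-specific proteins, snrpa (-0.86, limma adjusted p = 0.0223), snrpc (-0.77, limma adjusted p = 0.0290) and snrnp70 (-0.74, limma adjusted p = 0.0391). None of these 3 calls held without wild-type plate 3 at 8 hpf, which has 6 cells. The snrpa call was also lost without wild-type plate 1 or 5 at 24 hpf, the snrpc call without plate 4 at 8 hpf or 1 at 24 hpf, and the snrnp70 call without any other wild-type plate of these stages apart from plate 2 at 8 hpf. Those that rose were snrpf (1.18, limma adjusted p = 0.00204), SNRPG (0.80, limma adjusted p = 0.0120) and lsm4 (0.93, limma adjusted p = 0.0105), all ring proteins. The lsm4 call was lost without wild-type plate 3 at 8 hpf and the SNRPG call without plate 4.

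Other structural RNAs were rare. Besides U1, U3 and 5_8S_rRNA the table lists U2, U5, U6, U8, SNORA73 and SNORA81, of which 5 were tested and SNORA73 was left out by the filter on low values. At 24 against 8 hpf in the wild type U5, a spliceosomal RNA, fell by 0.69 on the log2 scale (limma adjusted p = 0.0346), to 5 transcripts in 196 cells at 24 hpf against 26 in 101 cells at 8 hpf. This call was lost without wild-type plate 1, 2 or 4 at 8 hpf or any of plates 2 to 5 at 24 hpf. No other of the 5 passed in a stage comparison. SNORA81, a box H/ACA small nucleolar RNA, was at 0 in all 10 plates of 3.5 hpf, and at 8 hpf it averaged 0.148 ± 0.106 transcripts per cell in mutant plates and 0.186 ± 0.218 in wild-type plates (SD, n = 4 each). Its limma adjusted p was 0.114 in mutant plates and 0.0872 in wild-type plates. U8, a box C/D RNA of large subunit maturation, averaged 0.0382 ± 0.0313 at 24 hpf in mutant plates (SD, n = 3) and 0.122 ± 0.0510 in wild-type plates (SD, n = 5), a difference that did not pass.

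Between mutant and wild type no gene of the nucleolar, spliceosomal, structural RNA or ribosomal protein lists passed limma's test at any stage, and no member had plates of the genotypes apart. Over all 910 tested genes 0.22% passed at 3.5 hpf, 0% at 8 hpf and 0.11% at 24 hpf. At an unadjusted p under 0.05 the counts were 51, 67 and 21 of 910. At 8 hpf 10 ribosomal protein genes, 1 nucleolar, 2 spliceosomal and 1 structural RNA gene were under that unadjusted level, and limma voom on summed transcripts called none there. Over all genes the 8 hpf count became 1, a ribosomal protein gene, when mutant plate 2 was left out, and 2 when wild-type plate 4 was. Among the nucleolar genes bysl had the smallest p at 8 hpf (0.261 ± 0.164 in mutant and 0.115 ± 0.0976 in wild-type plates, SD, n = 4 each, limma adjusted p = 0.581). Among the spliceosomal genes it was snrpc (0.157 ± 0.109 in mutant and 0.410 ± 0.180 in wild-type plates, SD, n = 4 each, limma adjusted p = 0.376), with all mutant plates below all wild-type plates. Among the structural RNAs it was U5 (0.0322 ± 0.0259 in mutant and 0.179 ± 0.151 in wild-type plates, SD, n = 4 each, limma adjusted p = 0.498). At 3.5 hpf the genes of smallest p on the nucleolar, spliceosomal and structural RNA lists were npm1a, tia1, the gene of a splicing regulator that recruits the U1 particle, and U5. Their log2 differences were -0.60 (limma adjusted p = 0.868), -0.55 (limma adjusted p = 0.83) and -0.36 (limma adjusted p = 0.932). At 24 hpf they were dkc1 (0.56), lsm4 (-0.64) and U8 (-0.43), each with a limma adjusted p of 1. The median log2 difference at 8 hpf was -0.18 for the nucleolar list and 0.33 for the ribosomal protein list, beside -0.0024 over all tested genes.

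**Figure D3:**
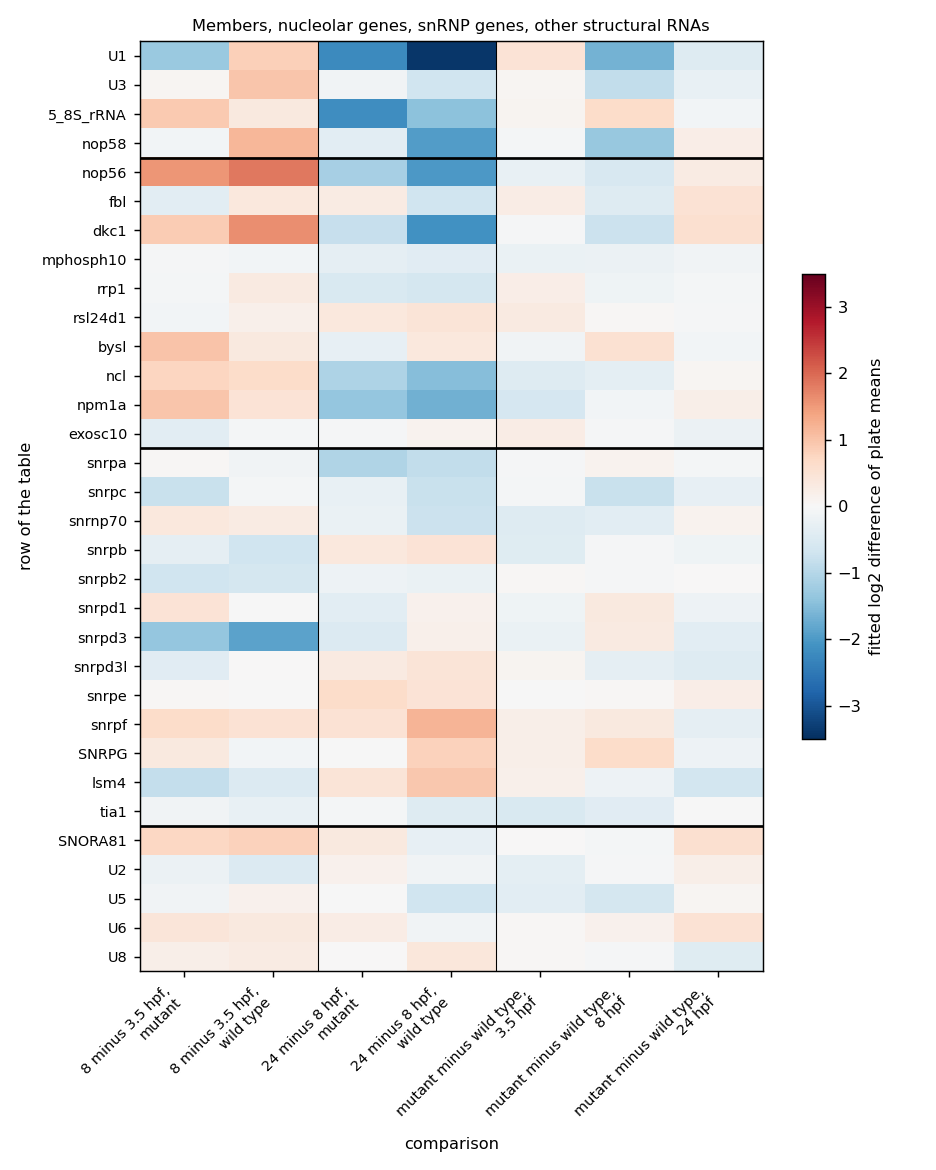
Fitted log2 differences of plate means (colour scale) for the 4 rows of the set, 10 nucleolar, 13 spliceosomal and 5 other structural RNA genes, from top to bottom, in the 4 stage comparisons (later minus earlier) and the 3 genotype comparisons (mutant minus wild type). U1 has the strongest colours, from -3.41 to 0.83, and nop58, nop56 and dkc1 have like colours in the wild-type stage comparisons.

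Correlation over the cells of a plate was described by Spearman's rho in plates of at least 10 cells, without a test, since the cells share a library and a depth. nop58 and nop56 correlated positively over cells at 8 hpf. Their mean rho was above the 95th percentile of all gene pairs in mutant plates (0.228) and below it in wild-type plates (0.277). By plate, rho was 0.351, 0.368 and 0.598 in mutant plates of 48, 36 and 26 cells. It was 0.282, 0.237 and 0.218 in wild-type plates of 21, 49 and 25 cells. The mutant plate of 48 cells is plate 1, with muscle and globin transcripts. All 6 values were positive, and the group means of 0.439 ± 0.138 in mutant plates and 0.246 ± 0.0331 in wild-type plates (SD, n = 3 each) lay above 99.7% and 92.9% of all gene pairs. At 3.5 hpf the mean rho was -0.155 ± 0.209 in mutant plates (SD, n = 5), above only 0.905% of pairs. In wild-type plates of that stage it was 0.111 ± 0.147 (SD, n = 4), above 87.2%. At 24 hpf it was 0.0223 ± 0.223 in mutant plates (SD, n = 3), above 59.3%. In wild-type plates of that stage it was 0.109 ± 0.241 (SD, n = 5), above 84.5%. Each of these groups had plates on both sides of 0. In the 76 cells of the 2 week plate rho was 0.344. The pair of nop58 and fbl at 8 hpf had a mean rho of 0.210 ± 0.0536 in mutant plates, above 93.5% of pairs, and -0.0198 ± 0.159 in wild-type plates, above 43% of pairs (SD, n = 3 each).

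5_8S_rRNA and nop58 had a rho of 0.271, 0.266 and 0.437 in the mutant plates at 8 hpf, above 98.8% of pairs in the mean (0.325 ± 0.0973, SD, n = 3). In wild-type plates of that stage it was -0.154, 0.238 and 0.0213, spread around 0 (0.0351 ± 0.196, SD, n = 3). At 24 hpf the mean rho of this pair was 0.194 in wild-type plates, above 95.2% of pairs, and -0.0139 in mutant plates, above 46.1%. The wild-type mean was 0.0981 to 0.255 with each plate left out in turn, and the highest plate (0.577) held 20 cells. At 3.5 hpf the mean rho was 0.0656 in wild-type plates, above 75.8%, and -0.0738 in mutant plates, above 14.6%. This wild-type mean was -0.0823 to 0.163 with each plate left out in turn, and the highest plate (0.509) held 14 cells. Differences between the genotypes were not tested. U1 showed no steady relation to 5_8S_rRNA, with group means from -0.126 to 0.0879, of which the lowest was that of wild-type plates at 24 hpf, where all 5 plates were below 0. The median over all gene pairs was between -0.00636 and 0.00993 in each group. Most cells hold 0 or 1 transcript of nop58 and 5_8S_rRNA, and weak values of rho are not read further.

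**Figure D4:**
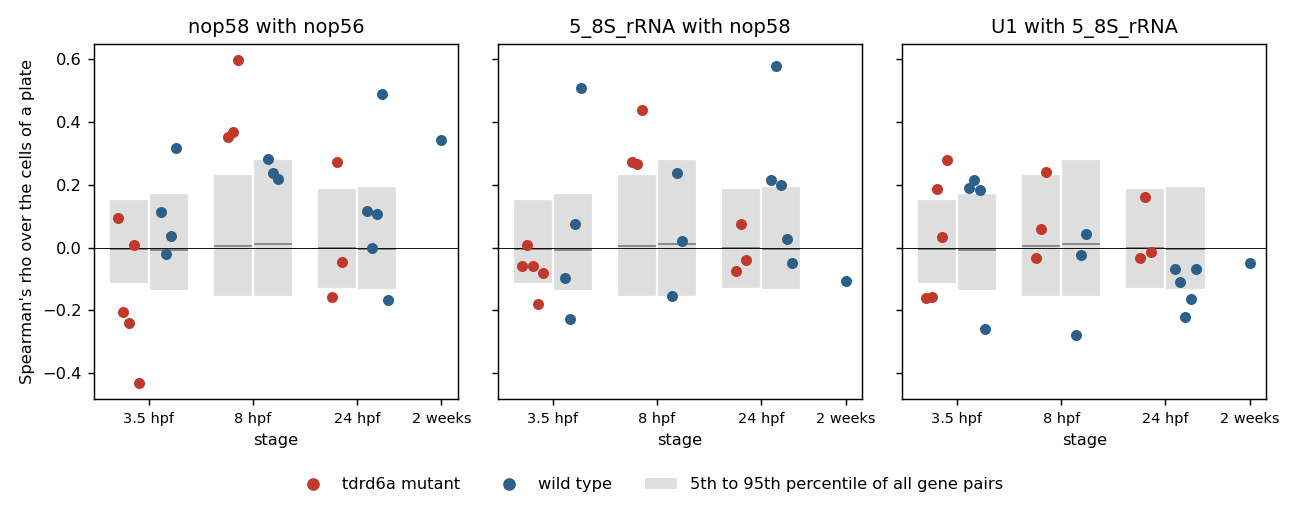
Spearman's rho over the cells of a plate for 3 pairs of rows by stage, 1 point per plate of at least 10 cells, mutant left of wild type, with grey bands for the range from the 5th to the 95th percentile of the group means of all pairs of tested genes. At 8 hpf the mutant points for nop58 with nop56 lie above the band at 0.351 to 0.598, while U1 with 5_8S_rRNA scatters around 0. Points are single plates and the band holds group means, so only group means compare with it like for like. At 8 hpf the mean for nop58 with nop56 was 0.439 in mutant plates, above the band. In wild-type plates it was 0.246, inside the band.

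A measure that played no part in the choice of the set was whether a cell held transcripts of the germ plasm genes nanos3 or vasa. Within each plate, cells with either transcript were set against cells without, and the differences were tested over plates with an exact sign-flip permutation test, two-sided, for 11 combinations of row and stage. None passed after Benjamini-Hochberg adjustment over the 11. With so few plates a single combination could not pass this adjustment alone, whatever its difference. The absence of calls is therefore not read as a lack of difference. The closest was U1 at 24 hpf, with 0.772 ± 0.739 transcripts per cell in cells with nanos3 or vasa and 0.287 ± 0.312 in cells without (SD over 8 plates). It was higher in 6 of 8 plates, by 0.95 ± 1.18 on the log2 scale (SD; exact permutation p = 0.0703, adjusted p = 0.773).

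At 8 hpf U1 averaged 6.25 ± 6.80 in cells with nanos3 or vasa and 2.86 ± 1.83 in cells without (SD over 6 plates), higher in 4 of 6 (exact permutation p = 0.594, adjusted p = 0.945). The spread came from wild-type plate 4, with 18.2 transcripts per cell in its 19 cells with these genes and 1 in its 6 cells without. Those 19 cells include the cell with 161 U1 transcripts, which raised their mean. At 3.5 hpf U1 averaged 6.82 ± 4.88 in cells with these genes and 6.38 ± 4.55 in cells without (SD over 8 plates), higher in 4 of 8. For nop58 the log2 difference between such cells was -0.12 ± 0.497 at 3.5 hpf, -0.0012 ± 0.307 at 8 hpf and -0.079 ± 0.431 at 24 hpf (SD over 8, 6 and 8 plates). For 5_8S_rRNA it was -0.13 ± 0.720 at 3.5 hpf, 0.032 ± 0.537 at 8 hpf and 0.17 ± 0.514 at 24 hpf. The smallest p this design allows is 0.00781 with 8 plates and 0.0312 with 6. Cells without a nanos3 or vasa transcript were not taken for cells of another type, since both genes were sparse.

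**Figure D5:**
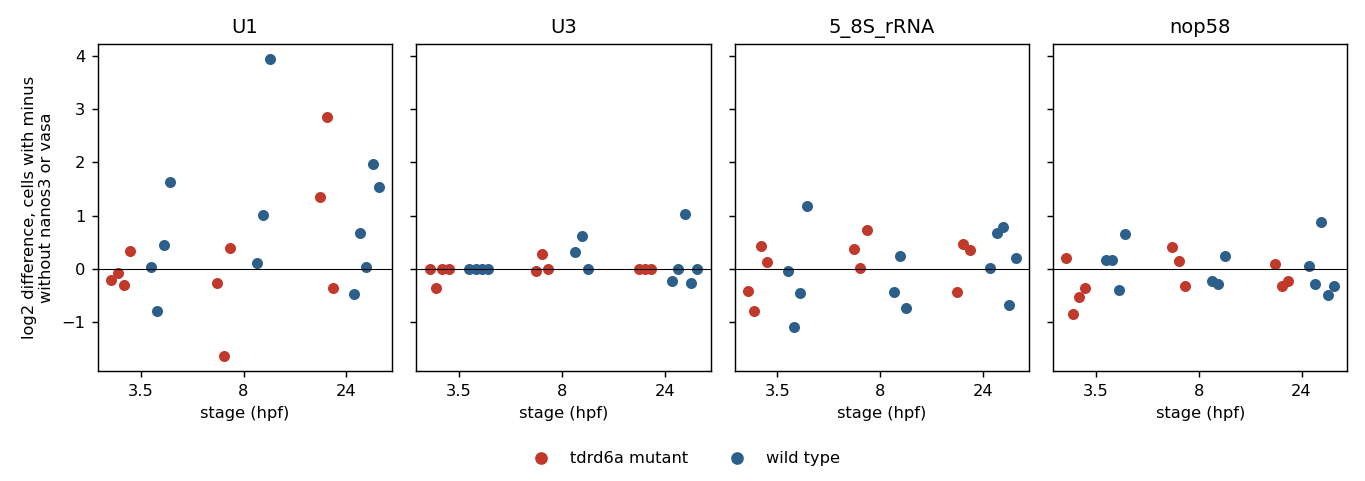
Difference within a plate of log2(transcripts + 0.2) between cells with and cells without nanos3 or vasa transcripts, 1 point per plate, mutant left of wild type at each stage, with a panel for each of the 4 rows. Points lie on both sides of 0 in most panels. U1 reaches 3.94 in wild-type plate 4 at 8 hpf, which holds the cell with 161 U1 transcripts. At 24 hpf 6 of 8 plates are above 0 for U1.

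The 2 week plate continued the low levels of 24 hpf for some rows and not for others. U1 stood at 0.0789 transcripts per cell (6 transcripts in 76 cells, exact 95% Poisson interval 0.0290 to 0.172), below every wild-type 24 hpf plate. 5_8S_rRNA stood at 0.0263 (2 transcripts, interval 0.00319 to 0.0951), inside the wild-type 24 hpf range. nop58 stood at 0.395 (30 transcripts, interval 0.266 to 0.564), inside the wild-type 24 hpf range as well, while U3 stood above it. With a single plate none of these values has a replicate check. In the plate of mixed stages, the 40 cells of the 24 hpf wells, labelled wild type, held 0.125 U1, 0.05 U3, 0.025 5_8S_rRNA and 0.275 nop58 transcripts per cell.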

How the data were processed

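Single sorted cells of 6 genotype and stage groups were compared over 26 plates, and groups follow the labels' genotype and stage. The authors deposited 1 table of signal values, whole numbers plus 0.1 (tolerance 1e-06), of 1017 genes in 1203 cells from 28 libraries; how reads became these values, and whether molecules or reads were counted, is not given in the sources used here. Per the labels' protocols RNA was extracted with Trizol, amplified by CEL-seq and read as 75 bp paired ends, and per the submitters' processing notes BWA and the build Zv9 were used. The members and the gene lists were chosen with earlier results of these data known.

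Deposited values were averaged over the cells of each plate. Sums over plates ranged from 1027 to 32018 transcripts, which sets the precision of a plate mean. Plate means were fitted with limma (version 3.58.1, R 4.3.3) as log2 values, 0.1 being added to the deposited mean (transcripts plus 0.2), with the 6 groups in 1 fit, 20 residual degrees of freedom, trend and robust moderation, two-sided p-values and Benjamini-Hochberg adjustment over the 910 genes with a mean of at least 0.1 transcripts in at least 3 plates; 107 genes were left out. All 4 members passed that filter. The fit was tested on simulated data. Of the names on the nucleolar, spliceosomal, structural RNA and ribosomal protein lists 10, 13, 6 and 77 are in the table. Genes named are the members, list genes past the threshold and, per list and comparison without a call, the gene of smallest p. Cells within plates were split by nanos3 or vasa transcripts in plates with at least 3 cells of each kind, and tested with scipy 1.17.1. Well barcodes are reused, each by 6 to 21 libraries, and 0 cells were identical. Same-numbered plates of the 2 genotypes did not deviate together (correlations of 12 pairs from -0.407 to 0.317). No sequence is printed, and no coordinates are given. Alternatives were a pseudocount of 0.5, cells rescaled to a common total, plates weighted by cells, plates of at least 10 cells, no filter, limma voom, a replicate block and leaving out each plate.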

Additional observations from a re-analysis of the deposited data

Results flagged for a closer look

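Among 19 sets of 4 or 5 plates screened for a plate far from the others, 4 were flagged. The flag compared the gap to the next plate with the range of the set. These plate means were known when the rows were chosen, so the flags are descriptions and not tests. U3 in mutant plates at 3.5 hpf was at 0.0448 transcripts per cell in plate 2 and at 0 in the others, where any value above 0 would be flagged. U3 in wild-type plates at 24 hpf was at 0.175 in plate 3, where the next plate was at 0.0286. 5_8S_rRNA in mutant plates at 3.5 hpf was at 1.5 in plate 1, where the next was at 0.41. nop58 in mutant plates at 3.5 hpf was at 0.721 in plate 4, where the next was at 0.5. Outside the comparisons, U3 in the 2 week plate, at 0.421 transcripts per cell, lay above all wild-type plates at 24 hpf, of which the highest was at 0.175.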

How the results depend on the processing

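Among the fitted differences of the members, 2 moved by more than the spread between plates under another setting: nop58 between mutant and wild-type plates at 8 hpf, at -0.48 with plates weighted by cells and -0.53 without plates of fewer than 10 cells, and 5_8S_rRNA between 24 and 8 hpf in the mutant, at -1.46 with a pseudocount of 0.5. That spread was wide for U1 (0.974) and nop58 (0.659), so the other differences are not read as stable. U1 between the genotypes at 8 hpf went from -1.65 to -2.57 without mutant plate 1 and the small plates. With each cell rescaled to the same total, nop58 between 8 and 3.5 hpf in the mutant went from -0.089 to -0.40. With plates weighted by cells it went to 0.54. Under that weighting 5_8S_rRNA between the genotypes at 3.5 hpf went from 0.084 to -0.083. The spread between plates of nop58 was 0.485 without the small plates. Under every alternative run the germ gene tests stayed above the threshold. Since no single combination could pass alone in the main run, this says little about their stability. The mean correlations over cells moved by less than the spread between plates.

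With each cell rescaled to the same total, calls at 8 against 3.5 hpf were 2 on the nucleolar list in the mutant, where 336 of all 910 genes passed. In the wild type they were 2 on the spliceosomal list, where 339 passed. At 24 against 8 hpf they were 41 among ribosomal protein genes in the mutant, where 117 passed. In the wild type they were 0 among other structural RNAs, where 264 passed. With limma voom on summed transcripts the mutant had 2 nucleolar, 5 spliceosomal, 1 structural RNA and 32 ribosomal protein calls at 8 against 3.5 hpf. Over all 910 genes 412 passed there. At 24 against 8 hpf it had 5, 3 and 38 nucleolar, spliceosomal and ribosomal protein calls, where 200 of all genes passed. Between the genotypes at 3.5 hpf 1 ribosomal protein gene passed, of 3 over all genes. With plates weighted by cells the mutant had 1 structural RNA, 61 ribosomal protein and 472 calls over all genes at 8 against 3.5 hpf. At 24 against 8 hpf it had 4 nucleolar calls, of 214 over all genes. Without plates of fewer than 10 cells the mutant had 1 structural RNA and 51 ribosomal protein calls at 8 against 3.5 hpf, of 411 over all genes. The wild type had 2 spliceosomal calls there, of 360 over all genes. It had 2 without mutant plate 1 as well, of 367. A pseudocount of 0.5 gave 11 ribosomal protein calls at 8 against 3.5 hpf in the wild type, of 311 over all genes. No filter gave 3 calls over all genes between the genotypes at 24 hpf. Rescaling also lost U5, voom lost lsm4 in the wild type at 24 against 8 hpf, and weighting by cells or leaving out the small plates lost snrpa in the wild type at 24 against 8 hpf and snrpc in the mutant at 8 against 3.5 hpf. The causes were not tested.

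Leaving out each plate in turn gave these ranges of calls. Nucleolar: 2 to 4 at 8 against 3.5 hpf and 0 to 3 at 24 against 8 hpf in the mutant. Spliceosomal: 1 to 2 at 8 against 3.5 hpf and 2 to 6 at 24 against 8 hpf in the wild type, and 0 to 1 at 24 against 8 hpf in the mutant. Structural RNA: 0 to 1 at 8 against 3.5 hpf in each genotype and 0 to 1 at 24 against 8 hpf in the wild type. Ribosomal protein: 11 to 44 and 8 to 17 at 8 against 3.5 hpf in the mutant and the wild type, 19 to 73 at 24 against 8 hpf in the mutant, and 0 to 1 between the genotypes at 8 hpf. Over all genes: 259 to 358 and 254 to 333 at 8 against 3.5 hpf in the mutant and the wild type. At 24 against 8 hpf the ranges over all genes were 55 to 227 in the mutant and 245 to 283 in the wild type. Between the genotypes they were 0 to 2 at 8 hpf and 1 to 2 at 24 hpf. The calls of nop56, dkc1, bysl, snrpd3 and snrpf, and of ncl and npm1a at 24 against 8 hpf in the wild type, held under every alternative and every plate left out. Plate numbers did not pair the samples (5 of 12 pairs correlated above 0.1); a replicate block gave U1 -1.65 at 8 hpf between the genotypes, 289 calls over all genes at 8 against 3.5 hpf and 146 at 24 against 8 hpf in the mutant, and lost the calls of ncl and snrpc in the mutant at 8 against 3.5 hpf and of snrnp70 in the wild type.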
